A study of Mus musculus with 9 samples.

Results

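The 10 genes described here make, break down and bind prostaglandins. They comprise the cyclooxygenases Ptgs1 and Ptgs2, the terminal synthases Ptges, Ptges2, Ptgis and Ptgds, the breakdown enzyme Hpgd, and the receptors Ptgfr, Ptger2 and Ptger4. The rows of the count table with these symbols were taken, 1 for each symbol, from 46078 genes in all. RNA-seq was performed on whole ovaries of 5 WT and 4 ERβKO mice, untreated per their labels and all on a C57BL/6J background. A protocol in the same records describes a diet and ligand experiment that it does not assign to these ovaries. In the ERβKO mice, exon 3 of Esr2, which encodes ERβ, was deleted in the germline by crossing a floxed allele with a Rosa26-Cre deleter, and the WT controls were offspring that lacked Cre. Mice were 4 to 20 weeks old across all experiments, the age behind each ovary is not stated, and no ovary was staged for the estrous cycle. The labels call the samples biological replicates, and p-values measure the spread between these ovaries.

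Prostaglandins are made from arachidonic acid, which phospholipases release from membranes. Cyclooxygenases convert it to prostaglandin H2, and terminal synthases turn that intermediate into prostaglandin E2, prostacyclin or prostaglandin D2. In the ovary the preovulatory surge of luteinizing hormone induces Ptgs2 in granulosa cells, prostaglandin E2 acts on its receptors during cumulus expansion and ovulation, and prostaglandin F2α acts on its receptor in the corpus luteum during luteal regression. Hpgd oxidizes prostaglandins to 15-keto forms of low activity, which prostaglandin reductases process further.

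The counts summed to between 12353740 and 18717510 per library, and 16722 genes passed the filter on low counts. Levels are given as FPKM, fragments per kilobase of gene scaled to the mapped fragments of the library. Fold changes are ERβKO over WT from edgeR's quasi-likelihood test on counts, with standard errors (SE). The test gives no SE itself, so each was derived as the absolute log2 fold change divided by the square root of the F statistic. To be called, a gene needed an adjusted p (Benjamini-Hochberg) under 0.05, a log2 fold change beyond 0.4 in either direction, and more than 1 FPKM as the mean of a genotype. The deleted gene, Esr2, was counted over its whole length, remaining exons included, and ranged from 12.4 to 23.9 FPKM in WT against from 10.5 to 23.7 FPKM in ERβKO ovaries, so that its level does not check the labels. On the first principal component, which held 35.9% of the variance, WT replicate 2 stood at 9.43, between the other WT ovaries at -43.8 to -15.6 and the ERβKO ovaries at 19.4 to 35.3. Ovgp1, which marks oviduct epithelium, reached 1294 to 2359 FPKM in WT against 1483 to 1906 FPKM in ERβKO ovaries, so every library also held oviduct RNA. The log2 fold changes of 6 oviduct markers, Ovgp1 included, were positive for 4 and negative for 2, with a median of 0.32. Ovgp1 itself was at -0.12. None of the 6 was called by edgeR or by DESeq2, run as an alternative. The summed level of 6 adipocyte markers was 81.9 to 208 FPKM in WT against 93.7 to 495 FPKM in ERβKO ovaries. That sum was highest in ERβKO replicate 1. The log2 fold changes of these adipocyte markers were positive for 5 and negative for 1 (Plin4, at -1.82), with a median of 1.20. None was called by edgeR, while DESeq2 called 2 of the 6 higher (Plin1 and Cidec), as it did 2.22% of all genes. An unadjusted p under 0.05 (edgeR) was found for 5 of the 6, Plin4 included, and for 19.8% of all genes tested. The sum adds Plin4 to markers that changed in the opposite direction. In whole ovaries, fewer cells of a type and less RNA per cell cannot be told apart.

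Of the 10 genes, 1 was called, Hpgd, which was higher in ERβKO ovaries, and none was called lower. Among all genes tested, 1.72% were called in either direction and 0.915% were called higher. The levels of 2 genes, Hpgd and Ptgis, did not overlap between the genotypes, with every ERβKO ovary above every WT ovary, which held for 3.92% of all genes tested. The genotypes did not overlap in 7.96% of all genes, the remaining 4.04% being higher in WT. The median log2 fold change of the 10 genes was 0.0011, with 5 positive and 5 negative values, beside a median of -0.00089 over all genes tested. With DESeq2 in place of edgeR, 2 genes were called, Hpgd and Ptgis, both higher, where 4.78% of all genes were called, 2.22% higher and 2.56% lower.

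**Figure D1:**
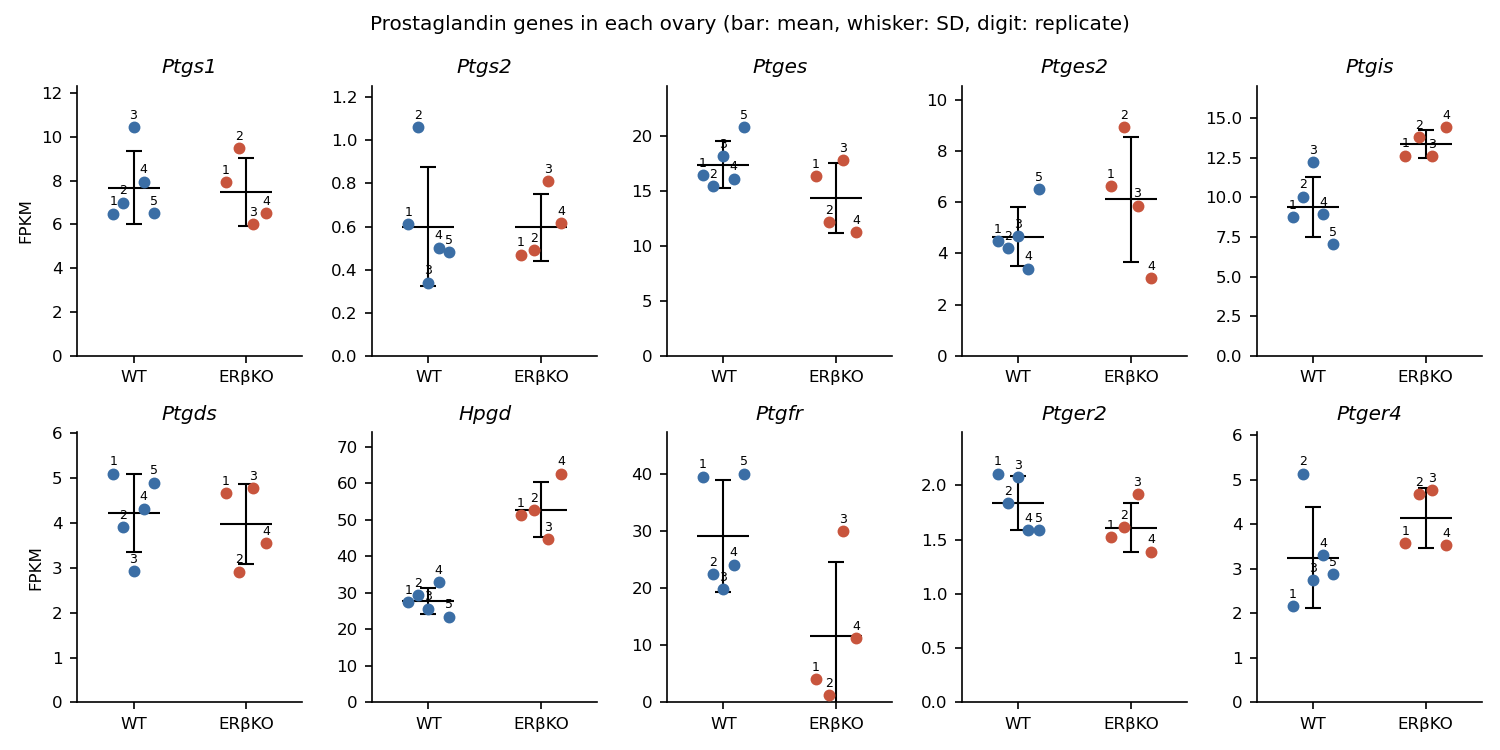
Level of each of the 10 genes in FPKM, 1 point per ovary numbered by replicate, for 5 WT and 4 ERβKO ovaries, with the mean as a bar and the SD as a whisker (the lower whisker of Ptgfr in ERβKO is cut at 0). The ERβKO points lie above all WT points for Hpgd and Ptgis, and for Ptgfr only ERβKO replicate 3, at 29.9 FPKM, lies within the WT range of 19.8 to 40.0 FPKM.

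The gene that was called, Hpgd (ENSMUSG00000031613, chromosome 8 of GRCm38 from 56294552 to 56321046, plus strand), encodes 15-hydroxyprostaglandin dehydrogenase, which oxidizes the 15-hydroxyl group of prostaglandins. Its level was 27.4, 29.4, 25.7, 32.9 and 23.4 FPKM in WT ovaries 1 to 5 against 51.3, 52.6, 44.6 and 62.6 FPKM in ERβKO ovaries 1 to 4. The lowest ERβKO ovary was above the highest WT ovary, and WT replicate 2 lay with the other WT ovaries here. The mean was 27.8 ± 3.61 FPKM (SD, n = 5) in WT and 52.8 ± 7.42 FPKM (SD, n = 4) in ERβKO ovaries. Hpgd rose 1.87-fold, a log2 fold change of 0.90 (SE 0.11), and its adjusted p was 0.00537 in edgeR and 7.68e-11 in DESeq2. The two-sided exact permutation test gave p = 0.0159, the smallest that 5 ovaries against 4 allow and the value for any gene without overlap. Hpgd was called in all 18 alternative fits, with an adjusted p of at most 0.0230, and its log2 fold change lay between 0.82 and 0.97 when single ovaries were left out. None of the exons of Hpgd overlapped another annotated gene.

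The summed granulosa cell markers were also higher in ERβKO ovaries. The summed level of 10 granulosa cell markers was 834 to 1082 FPKM in WT against 1146 to 1545 FPKM in ERβKO ovaries, without overlap. All 10 had positive log2 fold changes and 2 were called higher, as were 0.915% of all genes tested. Inhbb, an inhibin subunit gene, was at 1.09 (adjusted p = 0.00883, edgeR). Hsd17b1, an estradiol-forming enzyme gene, was at 0.77 (adjusted p = 0.0363, edgeR). Inha (mean 352 FPKM in WT against 509 FPKM in ERβKO) and Gja1 (339 against 509 FPKM) made up most of the granulosa sum. Neither was called by edgeR, while DESeq2 called both. The 6 theca markers summed to 465 to 728 FPKM in WT against 836 to 1718 FPKM in ERβKO ovaries, of which Aldh1a1 made up most (mean 521 FPKM in WT against 1092 FPKM in ERβKO). Aldh1a1 was called higher, with a log2 fold change of 1.05 (adjusted p = 0.0139, edgeR). It was the 1 gene called of the 5 theca markers tested, where 0.915% of all genes tested were called higher. Cyp17a1 had means of 48.4 and 246 FPKM but overlapped between the genotypes, with a log2 fold change of 2.35 (SE 0.94, adjusted p = 0.205, edgeR). The log2 fold changes of Ptch1, Gli1 and Hhip were 0.03, 0.12 and -0.06, and the median of the 5 theca markers tested was 0.12. None of these markers was at 0 in every library, and their part in the Hpgd result was not tested. The genes whose deviations from the genotype means followed those of Hpgd most closely over the 9 libraries, among 9431 genes with a mean over 5 FPKM, were Arfrp1 (r = 0.91), Pde7b (r = 0.91) and Zfp869 (r = 0.90). None of those 3 was called between the genotypes, with log2 fold changes of 0.04, 0.33 and 0.06 and adjusted p of 0.754, 0.121 and 0.689 (edgeR). They were picked as the highest of 9431 correlations over 9 libraries, which yields high values by selection alone. Whether these values exceed that was not tested.

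The 250 bases before the RefSeq start (build GRCm38.p6) were searched on both strands for an estrogen response element (GGTCA, any 3 bases, then TGACC), the NR5A motif CAAGGTCA, bound by LRH-1, and the cAMP response element TGACGTCA. RefSeq promoters were matched for 9 of the 10 genes, all but Ptgis. None of the 9 held any of the motifs exactly, while 0.0639%, 1.33% and 1.55% of 32851 promoters held the estrogen response element, the NR5A motif and the cAMP response element. With 1 letter allowed to differ, the NR5A motif was found in 3 of the 9, Hpgd, Ptgs2 and Ptgds, and in 19.6% of all promoters. The promoters of Hpgd, the gene that was called, and of Ptgs2, the cyclooxygenase of ovulation, are shown with that match in capitals, the first at chr8:56294302-56294551 and the second at chr1:150099781-150100030, both on the plus strand and 5′ to 3′.
Hpgd: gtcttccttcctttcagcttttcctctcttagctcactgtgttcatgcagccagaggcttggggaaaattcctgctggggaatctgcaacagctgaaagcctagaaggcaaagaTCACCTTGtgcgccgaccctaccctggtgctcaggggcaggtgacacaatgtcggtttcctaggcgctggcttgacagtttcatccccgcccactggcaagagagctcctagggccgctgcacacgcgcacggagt
Ptgs2: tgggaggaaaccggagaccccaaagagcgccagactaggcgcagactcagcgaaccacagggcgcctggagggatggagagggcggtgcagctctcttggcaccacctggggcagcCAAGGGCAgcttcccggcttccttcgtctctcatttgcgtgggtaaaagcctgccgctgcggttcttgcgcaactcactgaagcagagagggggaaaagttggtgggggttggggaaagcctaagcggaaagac
The match in Hpgd lies 136 to 129 bases before the start and reads on the opposite strand, with the substitution C7G counted from 1 at the 5′ end of the motif. The match in Ptgs2 lies 134 to 127 bases before the start on the plus strand, with T6G, and that in Ptgds lies 232 to 225 bases before the start, with A8T. These are matches of letters, and no binding was measured in these files.

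Downstream of Hpgd, 1 of 3 prostaglandin reductases was called higher, where 0.915% of all genes tested were. Ptgr1, which reduces 15-keto prostaglandins, was at 8.16, 9.06, 10.0, 6.41 and 6.96 FPKM in WT ovaries 1 to 5 against 9.53, 17.1, 19.5 and 21.5 FPKM in ERβKO ovaries 1 to 4. ERβKO replicate 1 lay within the WT range, and the other ERβKO ovaries lay above it. Ptgr1 rose by a log2 fold change of 1.03 (SE 0.22, adjusted p = 0.0417 in edgeR and 0.00053 in DESeq2). That call was lost when WT replicate 1, 4 or 5 or ERβKO replicate 2, 3 or 4 was left out, with adjusted p from 0.0876 to 0.119 (edgeR). It was also lost with the libraries numbered below 200 (0.195) and in both limma fits on FPKM (adjusted p 0.0735 and 0.0694), and Ptgr1 was called in 8 of the 18 alternatives. Ptgr2, a further 15-keto prostaglandin reductase, was lower in every ERβKO ovary (14.3 to 15.4 FPKM) than in every WT ovary (16.0 to 17.6 FPKM). Its log2 fold change of -0.20 (SE 0.06, adjusted p = 0.106, edgeR) did not meet the criteria, and 32.0% of its exon length lies over a gene on the opposite strand. Zadh2, the third reductase, had a log2 fold change of -0.17 (SE 0.10, adjusted p = 0.362, edgeR).

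The cyclooxygenases were not called. Ptgs1 (ENSMUSG00000047250, chromosome 2 from 36230426 to 36252272), the constitutive cyclooxygenase, was at 6.49, 6.99, 10.4, 7.95 and 6.51 FPKM in WT against 7.93, 9.50, 6.01 and 6.52 FPKM in ERβKO ovaries. The 2 groups overlapped almost throughout, with WT replicate 3 the highest. The log2 fold change was -0.055 (SE 0.17, 2 SE on each side spanning -0.39 to 0.28), with an adjusted p of 0.890 (edgeR). Ptgs2 (ENSMUSG00000032487, chromosome 1 from 150100031 to 150108227), the inducible cyclooxygenase, was at 0.611, 1.06, 0.339, 0.502 and 0.480 FPKM in WT against 0.469, 0.492, 0.810 and 0.615 FPKM in ERβKO ovaries. It was the lowest of the 10 genes and rested on 31 to 104 counts per library, with WT replicate 2 the highest ovary. Its log2 fold change was 0.027 (SE 0.32, span -0.61 to 0.67, adjusted p = 0.971, edgeR). Within a library the level of Ptgs1 exceeded that of Ptgs2 by a ratio of 6.59 to 30.8 in WT (median 13.6) and 7.42 to 19.3 in ERβKO ovaries (median 13.8), and these ranges overlapped.

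The genes that release arachidonic acid were not called either. Pla2g4a, the cytosolic phospholipase A2, had means of 14.0 ± 2.27 FPKM (SD, n = 5) in WT and 17.9 ± 0.936 FPKM (SD, n = 4) in ERβKO ovaries, a log2 fold change of 0.32 (SE 0.11, adjusted p = 0.152, edgeR). Mgll, which releases arachidonic acid from 2-arachidonoylglycerol, had a log2 fold change of 0.48 (SE 0.20, adjusted p = 0.219, edgeR), and Pla2g5, a secreted phospholipase, one of -0.13 (SE 0.35, adjusted p = 0.874, edgeR).

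Among the 4 terminal synthases, Ptgis stood apart ovary by ovary. Ptgis (ENSMUSG00000017969, chromosome 2 from 167191805 to 167240604, minus strand) encodes prostacyclin synthase. Its level was 8.78, 10.0, 12.2, 8.96 and 7.03 FPKM in WT against 12.6, 13.8, 12.6 and 14.4 FPKM in ERβKO ovaries. The lowest ERβKO ovary exceeded the highest WT ovary, by a small margin over WT replicate 3. The means were 9.40 ± 1.90 FPKM (SD, n = 5) and 13.4 ± 0.895 FPKM (SD, n = 4), a 1.40-fold ratio or 0.49 (SE 0.12) as log2 fold change. Its adjusted p was 0.0671 in edgeR, which misses the threshold, and 0.0114 in DESeq2, which passes it. The two-sided exact permutation p was 0.0159, the value for any gene without overlap, so it only restates the non-overlap. Ptgis was also called by edgeR when WT replicate 2 (adjusted p = 0.0492) or WT replicate 3 (adjusted p = 0.0186, log2 fold change 0.59) was left out. It kept its sign in all 18 alternatives but was called in only 3 of them. The adjusted p was 0.161 with the replicate block and 0.225 with the libraries numbered below 200 (edgeR). In the 2 limma fits on FPKM it was 0.105 and 0.104. The endothelial markers, 8 genes of a cell type known to make prostacyclin, summed to 99.6 to 124 FPKM in WT against 94.9 to 116 FPKM in ERβKO ovaries, and the 6 smooth muscle markers to 636 to 1147 and 657 to 807 FPKM. The ranges of both sums overlapped between the genotypes, and the part of these or other cell types in the Ptgis values was not tested.

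The prostaglandin E synthases were not called. Ptges (ENSMUSG00000050737, chromosome 2 from 30889471 to 30929863), the inducible microsomal synthase, was at 16.4, 15.5, 18.2, 16.1 and 20.8 FPKM in WT against 16.3, 12.1, 17.8 and 11.3 FPKM in ERβKO ovaries. ERβKO replicates 2 and 4 lay below all WT ovaries and the other ERβKO ovaries lay among them. The log2 fold change was -0.27 (SE 0.15, span -0.57 to 0.03, adjusted p = 0.354, edgeR). Ptges2 (ENSMUSG00000026820, chromosome 2 from 32395896 to 32405772), a membrane-associated synthase, was at 4.47, 4.20, 4.67, 3.40 and 6.51 FPKM in WT against 6.63, 8.93, 5.86 and 3.03 FPKM in ERβKO ovaries. Both the lowest and the highest ovary were ERβKO, on the FPKM scale. On the counts, 273 to 446 per library, the log2 fold change of Ptges2 was 0.11 (SE 0.10, adjusted p = 0.607, edgeR). Ptges3, the cytosolic synthase and an Hsp90 cochaperone, had means of 54.1 ± 1.75 FPKM (SD, n = 5) and 54.4 ± 4.10 FPKM (SD, n = 4).

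The synthases of prostaglandins D2 and F2α were not called by edgeR. Ptgds (ENSMUSG00000015090, chromosome 2 from 25466709 to 25470046), the lipocalin-type prostaglandin D synthase, was at 5.10, 3.91, 2.92, 4.32 and 4.90 FPKM in WT against 4.66, 2.92, 4.78 and 3.54 FPKM in ERβKO ovaries, so the groups shared 1 range. Its log2 fold change was -0.025 (SE 0.23, span -0.48 to 0.43, adjusted p = 0.964, edgeR), on 52 to 102 counts per library. Hpgds, the hematopoietic form, had means of 15.0 ± 9.83 FPKM (SD, n = 5) and 22.3 ± 5.70 FPKM (SD, n = 4), with WT replicate 2 at 31.3 FPKM the highest of the 9 ovaries (log2 fold change 0.56, adjusted p = 0.451, edgeR). Akr1b3, an aldose reductase with prostaglandin F synthase activity, had means of 66.0 ± 9.80 FPKM (SD, n = 5) and 89.2 ± 15.6 FPKM (SD, n = 4), with a log2 ratio of 0.41 (SE 0.13, adjusted p = 0.131, edgeR). Prxl2b, prostamide and prostaglandin F synthase, was at 12.9, 5.14, 5.74, 12.5 and 18.8 FPKM in WT against 6.50, 4.10, 5.44 and 4.18 FPKM in ERβKO ovaries. WT replicates 2 and 3 lay within the ERβKO range and the other WT ovaries above it, with a log2 fold change of -1.12 (SE 0.37) and an adjusted p of 0.134 in edgeR and 0.0297 in DESeq2.

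Of the 2 transporters, 1 was called lower, where 0.801% of all genes tested were. Abcc4, an efflux pump that exports prostaglandins, was at 5.03, 4.99, 4.44, 5.53 and 5.93 FPKM in WT against 4.27, 3.87, 3.88 and 3.58 FPKM in ERβKO ovaries. All 4 ERβKO ovaries lay below the lowest WT ovary. Abcc4 fell by 0.42 on the log2 scale (SE 0.09, adjusted p = 0.0481 in edgeR and 0.00185 in DESeq2). Its two-sided exact permutation p was 0.0159, which likewise only restates the non-overlap. The call was lost when any single ovary other than WT replicate 2 or 3 was left out, with adjusted p from 0.0639 to 0.143 (edgeR). With the libraries numbered below 200 (0.178) and in both limma fits (adjusted p 0.113 and 0.108) it was lost too, and Abcc4 was called in 7 of the 18 alternatives. Slco2a1, the prostaglandin uptake transporter, had a log2 fold change of 0.0028 (SE 0.21, adjusted p = 0.995, edgeR).

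Counted over all roles, the other pathway genes comprised 21 genes, of which 19 were tested, 1 was called higher (Ptgr1) and 1 lower (Abcc4) by edgeR, where 0.915% of all genes were called higher and 0.801% lower. DESeq2 called 2 higher (Ptgr1 and Ptger3) and 2 lower (Abcc4 and Prxl2b), where 2.22% and 2.56% of all genes were. Their median log2 fold change was 0.0028, with 10 positive and 9 negative values.

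**Figure D2:**
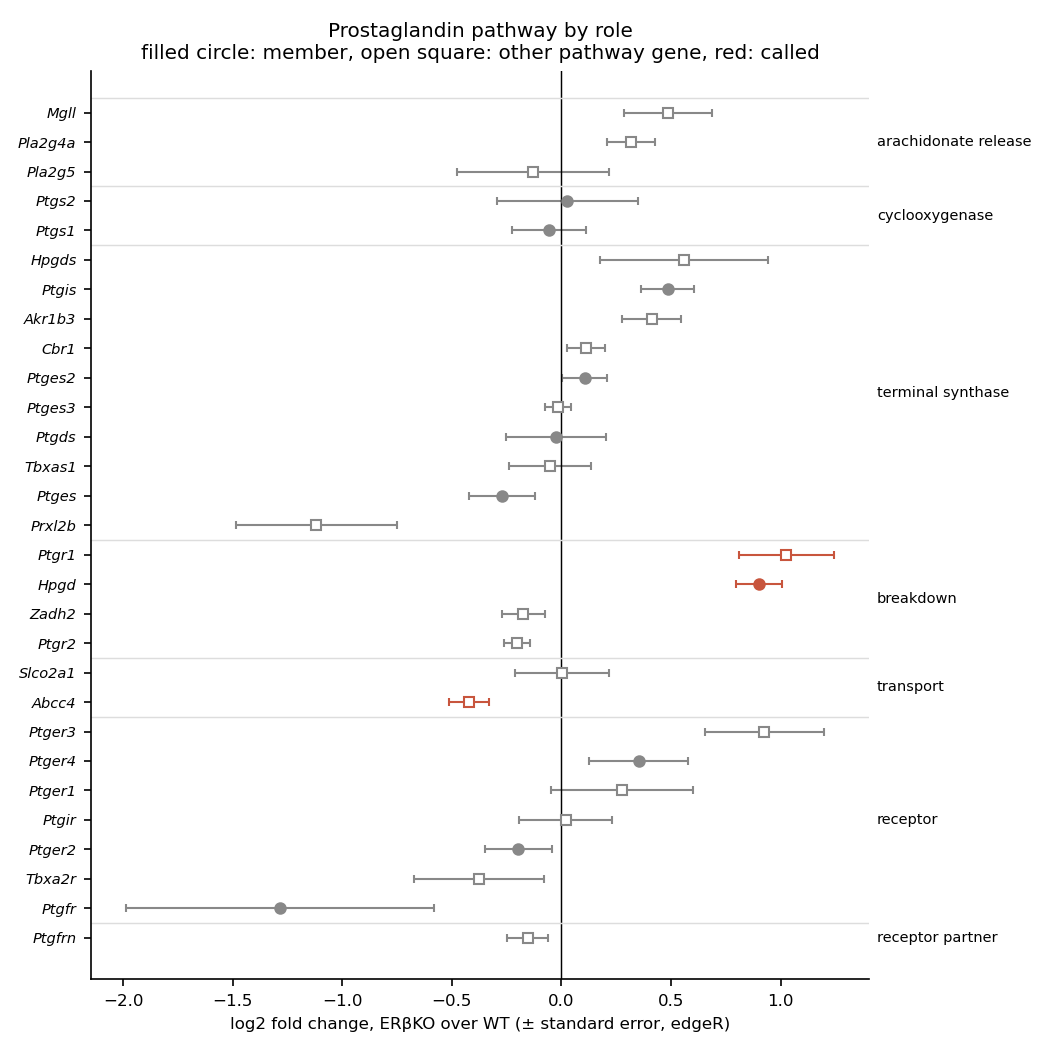
Log2 fold change (ERβKO over WT, edgeR) with its standard error for the 10 genes described here (filled circles) and the 19 tested other pathway genes (open squares), ordered by role, with called genes in red. The called genes are Hpgd at 0.90 and Ptgr1 at 1.03 in breakdown and Abcc4 at -0.42 in transport.

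The receptors were not called, and Ptgfr had the largest SE of the 10 genes. Ptgfr (ENSMUSG00000028036, chromosome 3 from 151796502 to 151837630, minus strand) encodes the prostaglandin F2α receptor. Its level was 39.5, 22.4, 19.8, 24.1 and 40.0 FPKM in WT against 4.01, 1.22, 29.9 and 11.2 FPKM in ERβKO ovaries. ERβKO replicates 1, 2 and 4 lay below every WT ovary, and ERβKO replicate 3 lay above 3 of the WT ovaries. The means were 29.2 ± 9.80 FPKM (SD, n = 5) and 11.6 ± 12.9 FPKM (SD, n = 4). The log2 fold change was -1.28 (SE 0.70, span -2.69 to 0.12), with an adjusted p of 0.345 in edgeR and 0.363 in DESeq2, and the two-sided exact permutation p was 0.0635. When single ovaries were left out, the log2 fold change ran from -2.39 to -0.90 (edgeR). The value of -2.39 was found without ERβKO replicate 3, with an adjusted p of 0.101 (edgeR). The genotypes then did not overlap, which follows from leaving out that ovary. Ptgfr was not called in any of the 18 alternatives.

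Ptgfr is known from luteal cells, and the luteal markers are given beside it. The summed level of 9 luteal markers was 6181, 3111, 3891, 4151 and 6700 FPKM in WT against 2596, 2587, 4046 and 2849 FPKM in ERβKO ovaries. Hsd3b1 (mean 2533 FPKM in WT) and Cyp11a1 (1353 FPKM), which act in steroid synthesis in other ovarian cells as well, made up most of that sum. ERβKO replicate 3 was the highest ERβKO ovary by the sum as by Ptgfr, and WT replicates 1 and 5 were the highest WT ovaries by both. Of the 9 markers, 8 had negative log2 fold changes (median of the 9, -0.86), none was called by edgeR, and none was at 0 in every library. An unadjusted p under 0.05 was found for 5 of the 9 and for 19.8% of all genes tested, and DESeq2 called 3 of the 9 lower and 2.56% of all genes lower. Star, which carries cholesterol into mitochondria, was at 217, 73.8, 185, 187 and 324 FPKM in WT against 66.5, 34.9, 85.4 and 26.7 FPKM in ERβKO ovaries. The exception was Akr1c18, the 20α-hydroxysteroid dehydrogenase that inactivates progesterone in regressing corpora lutea, at 151, 70.8, 26.0, 3.27 and 18.2 FPKM in WT against 1.29, 2.71, 471 and 19.4 FPKM in ERβKO ovaries. ERβKO replicate 3 was far above the other ovaries for Akr1c18. The part of the luteal share of the tissue in the Ptgfr values was not tested.

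**Figure D3:**
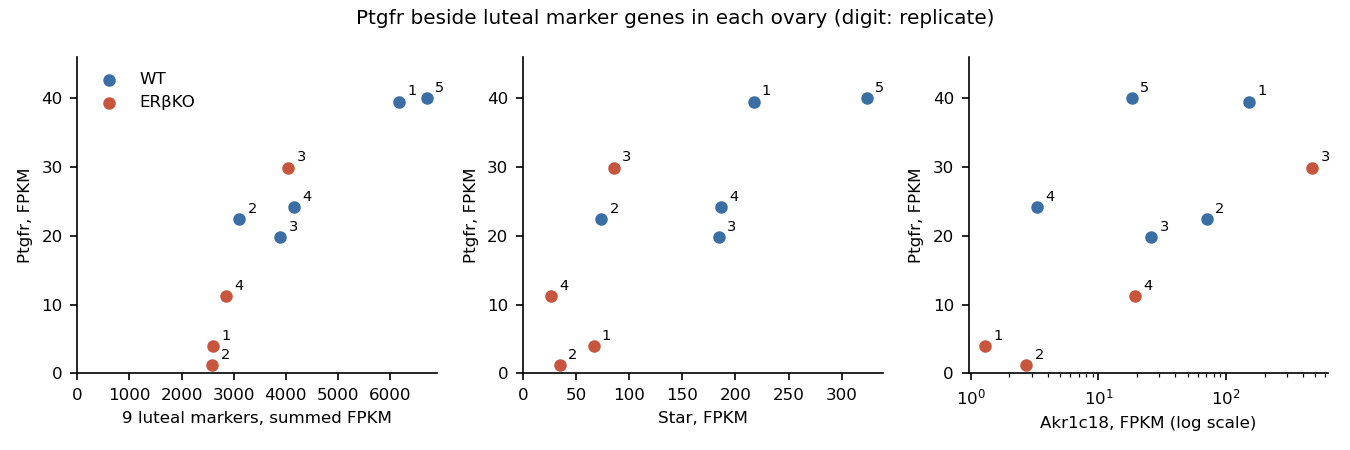
Ptgfr level (FPKM) of each ovary against the summed level of 9 luteal markers, against Star and against Akr1c18 on a log scale, with WT in blue and ERβKO in red and replicate numbers beside the points. ERβKO replicate 3, at 29.9 FPKM of Ptgfr, had the highest luteal sum of the ERβKO ovaries (4046 FPKM) and the highest Akr1c18 of all ovaries (471 FPKM).

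The receptors of prostaglandin E2 lay at low levels. Ptger2 (ENSMUSG00000037759, chromosome 14 from 44988195 to 45003820), the EP2 receptor that raises cAMP in cumulus cells, was at 2.11, 1.83, 2.07, 1.59 and 1.59 FPKM in WT against 1.52, 1.62, 1.92 and 1.39 FPKM in ERβKO ovaries. The groups overlapped, with a log2 fold change of -0.20 (SE 0.15, span -0.50 to 0.11, adjusted p = 0.510, edgeR). Ptger4 (ENSMUSG00000039942, chromosome 15 from 5206661 to 5244187), the EP4 receptor, which also raises cAMP, was at 2.16, 5.14, 2.75, 3.31 and 2.88 FPKM in WT against 3.58, 4.68, 4.77 and 3.53 FPKM in ERβKO ovaries. WT replicate 2 was the highest of the 9 ovaries, and every other WT ovary lay below every ERβKO ovary. The log2 fold change of Ptger4 was 0.35 (SE 0.22, span -0.10 to 0.80, adjusted p = 0.414, edgeR), and 16.5% of its exon length lies over genes on the opposite strand. The ratio of Ptger4 to Ptger2 was 1.02 to 2.80 in WT (median 1.81) and 2.35 to 2.89 in ERβKO ovaries (median 2.52), with overlapping ranges.

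Among the other receptors, Ptger3, the EP3 receptor, which lowers cAMP, was at 1.27, 2.20, 3.07, 1.79 and 1.61 FPKM in WT against 5.68, 2.34, 3.76 and 3.17 FPKM in ERβKO ovaries. WT replicate 3 lay above ERβKO replicate 2, so the groups overlapped, with a log2 fold change of 0.93 (SE 0.27) and an adjusted p of 0.104 in edgeR and 0.0238 in DESeq2. ERβKO replicate 1, the highest ovary for Ptger3, also had the highest sum of the adipocyte markers (495 FPKM). That sum was 137, 81.9, 130, 208 and 208 FPKM in WT ovaries 1 to 5. In ERβKO ovaries 1 to 4 it was 495, 150, 237 and 93.7 FPKM. The order of the ovaries by that sum was not their order by Ptger3. The part of fat tissue in the Ptger3 values was not tested. The prostacyclin receptor gene Ptgir had means of 0.517 FPKM in WT against 0.531 FPKM in ERβKO ovaries, and the thromboxane receptor gene Tbxa2r 0.272 and 0.229 FPKM. The prostaglandin D2 receptor genes Ptgdr and Ptgdr2 had at most 7 and 14 counts in a library and were not tested.

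Ovulation genes that act beside Ptgs2 and Ptger2 were compared in the same fit. Of 11 such genes, 9 were tested, and none was called by edgeR or DESeq2, which gave Pgr no adjusted p. None had an unadjusted p under 0.05, as 19.8% of all genes tested did, and so few genes allow no reading of that count. Their median log2 fold change was 0.23, with 6 positive and 3 negative values. Pgr, the progesterone receptor gene that the ovulatory surge induces in granulosa cells, was at 1.08, 7.02, 1.03, 1.44 and 2.42 FPKM in WT against 2.73, 3.81, 4.36 and 4.10 FPKM in ERβKO ovaries. WT replicate 2, which was also the highest ovary for Ptgs2 and Ptger4, was the highest for Pgr, and every other WT ovary lay below every ERβKO ovary. The log2 fold change of Pgr was 0.53 (SE 0.48, adjusted p = 0.586, edgeR), and it was called when WT replicate 2 was left out. Areg, an epidermal growth factor family ligand of cumulus expansion, had a log2 fold change of 0.51 (SE 0.27, adjusted p = 0.334, edgeR).

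By mean FPKM in WT ovaries, the order from high to low was Ptgfr, Hpgd, Ptges, Ptgis, Ptgs1, Ptges2, Ptgds, Ptger4, Ptger2 and Ptgs2. The WT ranges of Ptgfr and Hpgd overlapped, as did those of neighbours from Ptgis down to Ptger4, while the ranges of Hpgd and Ptges, Ptges and Ptgis, Ptger4 and Ptger2, and Ptger2 and Ptgs2 did not. In ERβKO ovaries Hpgd ranked 1 and Ptgfr 4. The ratio of Hpgd to Ptges, a breakdown enzyme to a synthase, was 1.13 to 2.04 in WT (median 1.67) and 2.50 to 5.56 in ERβKO ovaries (median 3.74), without overlap. That ratio contains Hpgd and is not independent of its own difference. By position, 5 of the 10 genes lie on chromosome 2 (Ptgs1, Ptges, Ptges2, Ptgis and Ptgds) and the other five lie on a chromosome each.

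**Figure D4:**
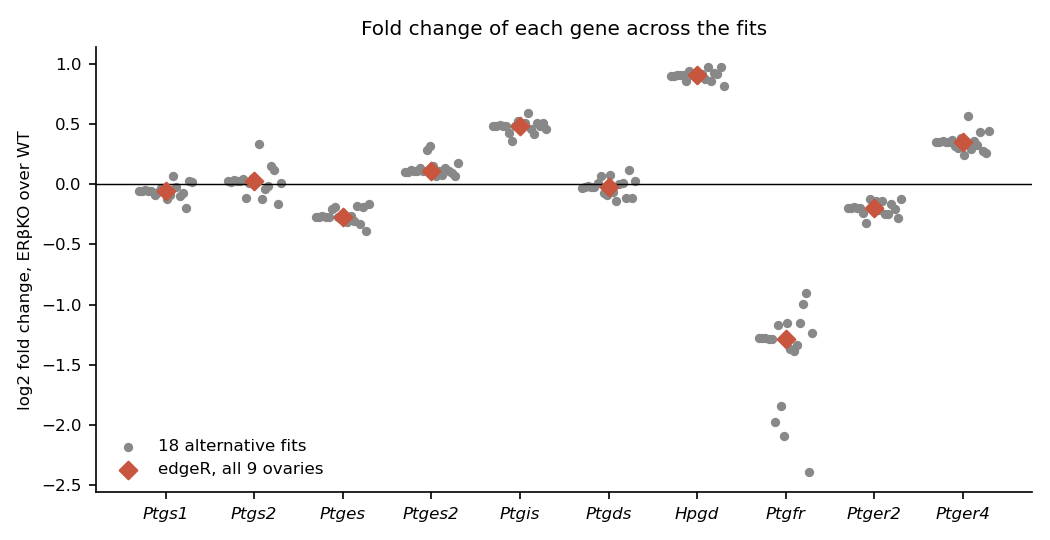
Log2 fold change (ERβKO over WT) of each of the 10 genes in edgeR with all 9 ovaries (red diamonds) and in 18 alternative fits (grey points). Hpgd lies between 0.82 and 0.97 and Ptgis between 0.36 and 0.59, Ptgfr ranges down to -2.39, and the points of Ptgs1, Ptgs2 and Ptgds lie on both sides of 0.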

How the data were processed

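RNA was taken from whole ovaries, 1 library for each of 5 WT and 4 ERβKO samples. The authors made stranded libraries from polyadenylated RNA, sequenced pairs of 150 bp, mapped them to GRCm38 with STAR and counted them on genes with FeatureCounts. The deposited counts are raw, and whether counting used the strand is not given in the sources used here. The deposited FPKM values were calculated by the authors with StringTie for each library. The files also hold TPM and coverage, which were not used.

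The 46078 genes were filtered with filterByExpr, normalized by TMM and tested with edgeR 4.0.16 (quasi-likelihood, genotype as the factor, R 4.3.3), with Benjamini-Hochberg adjustment over the 16722 genes left. The common biological coefficient of variation was 0.179. Thresholds follow the study, whose tool was DESeq2. Here DESeq2 (1.42.0), run on the same filtered counts, was an alternative. A span is the log2 fold change with 2 standard errors on each side. Genotypes overlap or not by log2 CPM after TMM, and exact permutation tests on that scale cover the 126 splits of 9 ovaries. The other alternatives were 2 further normalizations, 2 further filters (none, and 10 or more counts in each library), a block for the replicate number, the libraries numbered below 200 (without WT replicates 4 and 5), limma (3.58.1) on log2(FPKM + 1) and log2(FPKM + 0.1) for genes with a mean FPKM over 0.1, and each library left out in turn, 18 in all. The tests were tried on simulated data with known changes. Tables and figures used Python 3.11.15 with pandas 2.3.3, NumPy 2.4.6 and matplotlib 3.10.9.

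All 10 genes are named. Other pathway and ovulation genes are named where edgeR or DESeq2 called them, where the genotypes did not overlap, or where they complete a role, and for a called member the 3 genes most like it are named. The 10 genes and all lists were chosen with earlier results of these data known.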

Additional observations from a re-analysis of the deposited data

How the results depend on the processing

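Hpgd was called in every alternative and kept its direction. The count of called genes among the 10 was 1 with all ovaries, 2 with DESeq2, and 1 to 2 when single libraries were left out, the addition being Ptgis each time. Among the other pathway genes the count was 2, but 4 with DESeq2, 0 with the libraries numbered below 200, 0 with limma on log2(FPKM + 1), 0 with limma on log2(FPKM + 0.1), and 0 to 4 when single libraries were left out (4 without WT replicate 2, adding Hpgds and Prxl2b, and 0 without WT replicate 1, 4 or 5 or ERβKO replicate 2, 3 or 4). In the ovulation list the count was 0, and 0 to 1 when single libraries were left out (Pgr, without WT replicate 2). The number of the 10 genes without overlap was 2, and 2 to 3 when single libraries were left out. Promoter motifs were found in 0 of the 9 promoters exactly and in 3 with 1 letter allowed to differ. Over all genes tested, 287 were called by edgeR and 800 by DESeq2, 388 without a filter, 151 with the block, 51 with the libraries numbered below 200, 161 and 190 with limma at pseudocounts of 1 and 0.1, and 60 to 919 when single libraries were left out (60 without ERβKO replicate 2, 919 without WT replicate 2). The cause of these changes was not tested.

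With the replicate number as a block, on 8 libraries since WT replicate 5 has no partner, 1 of the 10 genes was called, Hpgd, and 0 of the other pathway genes (adjusted p 0.130 for Ptgr1 and 0.158 for Abcc4). The numbers were not taken as pairs: the correlations of deviations between ovaries of the same number ran from -0.043 to 0.13, and in 0 of 4 numbers did the WT ovary correlate best with its own number.

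Of 180 log2 fold changes of single genes under the alternatives, 162 kept their direction and their side of the threshold, 3 newly passed it (all Ptgis), and 15 changed sign, all of genes near 0. Ptgs1 ran from -0.20 to 0.064, Ptgs2 from -0.17 to 0.33 and Ptgds from -0.14 to 0.12 when single libraries were left out. With the libraries numbered below 200, Ptgs2 was at -0.12 and Ptgds at 0.069, and with the replicate block Ptgds was at 0.0054. Of the 10 genes, Ptgs2 and Ptgds had the fewest counts, at 31 to 104 and 52 to 102 per library. The ovaries were not staged, and the part of cycle stage in these values was not tested.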
